A study of Mus musculus with 12 samples.

Results

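The interferon-inducible GTPases of the Gbp and Irg families were examined in inguinal white adipose tissue (iWAT). The 10 genes Gbp2, Gbp3, Gbp4, Gbp6, Gbp7, Gbp9, Igtp, Irgm1, Irgm2 and Iigp1 were taken by gene name from the table of read counts, which lists 54134 genes, and 15585 of those genes, among them all 10, passed a filter on low counts. Male C57BL/6J mice received by tail vein, at 8 weeks of age, AAV8 particles that drive either green fluorescent protein (6 AAV-GFP mice) or mouse Notum (6 AAV-Notum mice) from the thyroxine-binding globulin promoter, which is a liver promoter. NOTUM is a secreted enzyme that inhibits Wnt proteins, and the fat itself was not the tissue targeted. All 12 mice were on chow, and iWAT was taken 4 weeks after injection and a 4 h fast, with 1 library per mouse. The question was which transcripts of iWAT differ when the liver makes NOTUM.

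Gbp proteins (guanylate-binding proteins) and the smaller Irg proteins (immunity-related GTPases) are among the most abundant proteins that cells make in response to interferons. Interferon-gamma acts mainly through short DNA elements called GAS, and type I interferons act mainly through elements called ISRE. The proteins assemble on the vacuoles of intracellular parasites and bacteria and break them open. The Irgm proteins and Igtp reside on the membranes of the cell itself and keep effector Irg proteins such as Iigp1 inactive there, and the autophagy proteins help to direct both families to their targets. In fat, the genes can be read in adipocytes and in the immune and vascular cells between them.

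The genes lie in clusters (GRCm38, GENCODE vM21). Gbp7, Gbp3 and Gbp2 follow each other on chromosome 3, with gaps of 9.88 kb and 47.4 kb. On chromosome 5 the annotated spans of Gbp9 (105077630 to 105139539) and Gbp4 (105115767 to 105139586) overlap, and Gbp6 lies 131 kb further on (105270702 to 105293698). On chromosome 11 the span of Igtp (58199556 to 58207591) lies within that of Irgm2 (58199618 to 58222782) for all but its first bases, and Irgm1 (48861968 to 48871683) stands 9330 kb away. Iigp1 is on a chromosome of its own.

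The regulatory letters just before the start sites are shown because the genes are grouped by their response to interferons. RefSeq promoter windows (GRCm38.p6, 300 bases around a start site) were examined for 6 of the 10 genes: Gbp2, Gbp3, Gbp7, Irgm1, Igtp and Irgm2. No window of Gbp4, Gbp6, Gbp9 or Iigp1 was examined, so whether these genes hold the letters is not known. Stretches upstream of the start are printed 5′ to 3′ on the strand of the gene, with GAS (TTCNNNGAA) and ISRE (GAAANNGAAA, or its reverse complement TTTCNNTTTC) in capitals. The stretches are chr3:142620589-142620628 (Gbp2), chr3:142559984-142560029 (Gbp3) and chr3:142530215-142530307 (Gbp7) on the plus strand, chr11:48871421-48871465 on the minus strand (Irgm1), and chr11:58199496-58199546 (Igtp) and chr11:58214887-58214937 (Irgm2) on the plus strand.
Gbp2: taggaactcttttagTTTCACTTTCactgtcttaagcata
Gbp3: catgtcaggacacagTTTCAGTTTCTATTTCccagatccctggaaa
Gbp7: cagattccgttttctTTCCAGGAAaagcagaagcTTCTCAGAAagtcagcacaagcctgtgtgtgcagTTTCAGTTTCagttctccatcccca
Irgm1: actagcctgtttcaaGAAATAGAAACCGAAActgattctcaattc
Igtp: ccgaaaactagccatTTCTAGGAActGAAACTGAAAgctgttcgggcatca
Irgm2: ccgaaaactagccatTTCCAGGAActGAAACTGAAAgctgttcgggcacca
Each of the 6 genes had the ISRE letters in its window, against 3.44% of the 32851 windows of the same length in the table. Gbp3 and Irgm1 had 2 ISRE matches that overlap each other, and a second listed window of Gbp3 had none. The GAS letters were found in Gbp7 (2 matches), Igtp and Irgm2, against 8.3% of all windows, and in these 3 genes both elements stood together, as in 0.454% of all windows. No GAS match overlapped an ISRE match. The stretches of Igtp and Irgm2 were identical at 49 of 51 positions. The matches describe letters only, and whether a factor bound there was not measured.

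Between 14711113 and 21618860 reads were counted per mouse, and RNA integrity numbers spanned 6.9 to 7.4 among AAV-Notum and 5.7 to 7.6 among AAV-GFP mice. Adipocyte markers such as Fabp4 and Adipoq were abundant in every mouse, as the tissue label says. Lymphoid transcripts varied widely: a lymphoid score (mean log2 CPM of 15 B and T cell markers, where CPM are counts scaled to library size by TMM) was -0.18 in mouse AAV-GFP-2011, -0.66 in AAV-GFP-2014 and 3.52 in AAV-GFP-2012, and lay between 4.93 and 7.02 in the other 9 mice. Notum transcripts were read 560 and 433 times in AAV-Notum-2032 and AAV-Notum-2041 and at most 17 times in any other mouse.

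All 10 genes had a higher mean in AAV-Notum than in the AAV-GFP group, by 1.06-fold to 1.52-fold, and 51.2% of all genes tested had a log2 fold change above 0. The median log2 fold change of the 10 genes was 0.34, and that of all genes tested was 0.01. With edgeR's quasi-likelihood test and Benjamini-Hochberg adjustment over 15585 genes, 0 of the 10 genes passed an adjusted p of 0.05, and among all genes 0% passed it as higher. At an unadjusted p under 0.05, Gbp3, Gbp6, Igtp and Irgm2 were higher and 0 of the 10 were lower, where 4.64% of all genes were higher and 9.54% lower. DESeq2, the tool the authors used, called 3 of the 10 higher at an adjusted p under 0.05 (Gbp3, Gbp6 and Igtp), against 0.481% of the genes it tested. These 3 genes also stand in a group of genes for the response to interferon-beta that the study chose on these samples, so that group is not independent evidence of their direction. In 1 of the 10 genes, Gbp3, the groups did not overlap, with all AAV-Notum mice on top, which held for 0.398% of all genes. With RNA integrity as a covariate all 10 log2 fold changes were above 0, from 0.10 (Gbp2) to 0.51 (Igtp), with a median of 0.26.

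**Figure D1:**
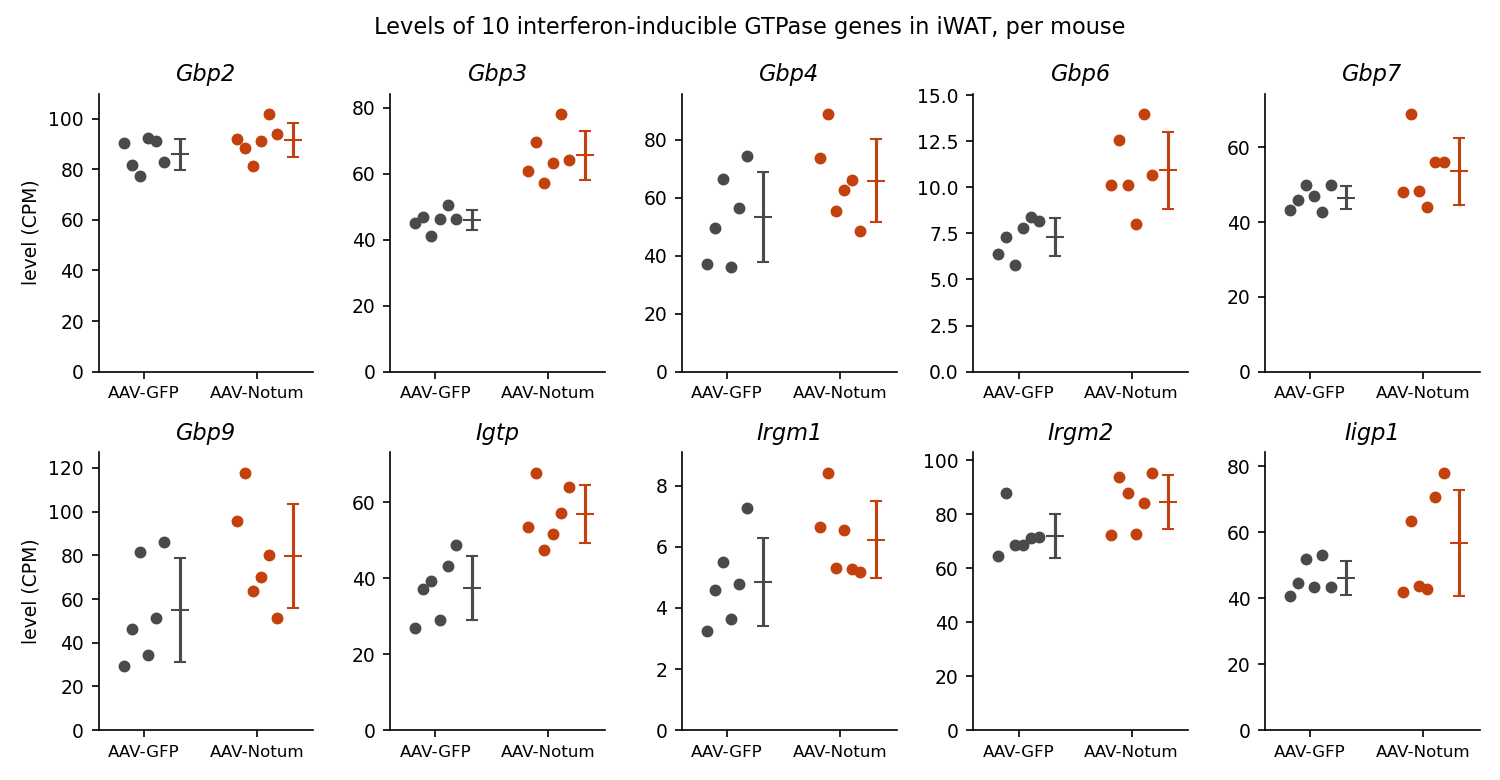
Level of each of the 10 genes in iWAT in CPM (counts scaled to library size by TMM), 1 point per mouse, for 6 AAV-GFP and 6 AAV-Notum mice; bars show the mean ± SD. The groups are separate for Gbp3, where AAV-GFP mice end at 50.5 CPM and AAV-Notum mice begin at 57.1 CPM, and overlap for the other 9 genes.

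Among the Gbp genes of chromosome 3, which as a cluster are known to be needed for resistance to Toxoplasma, Gbp3 was the gene of the 10 whose groups did not overlap. Gbp3 (ENSMUSG00000028268) had 41.1 to 50.5 CPM in the AAV-GFP group (median 46.3) and 57.1 to 78.1 CPM in the AAV-Notum group (median 63.7). The lowest AAV-Notum mouse was therefore above the highest AAV-GFP mouse. A log2 fold change of 0.51 resulted (SE, the standard error, 0.08, edgeR adjusted p = 0.0518), a 1.42-fold difference with a 95% interval of 1.26 to 1.61. The two-sided exact permutation test gave p = 0.00216, the smallest that 6 against 6 mice allow, and DESeq2 an adjusted p of 1.47e-05. The edgeR value thus lay just outside the threshold, and it was 0.0422 with RLE size factors, 0.0322 with a filter of at least 10 counts in every mouse and 0.0314 without mouse AAV-GFP-2022. It was higher in other fits, at 0.0757 with limma-voom, 0.105 when genes with as little as 1 read over all mice were kept, 0.122 with RNA integrity as a covariate and up to 0.157 with a mouse left out (AAV-Notum-2034).

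Gbp2, a prenylated member of the family, was the most abundant of the 10 genes per kilobase of exon and the least different. Gbp2 (ENSMUSG00000028270) ran from 77.4 to 92.2 CPM in the AAV-GFP group (median 86.7) and from 81.3 to 102 CPM in the AAV-Notum group (median 91.6), so that only AAV-Notum-2041 and AAV-Notum-2042 exceeded all AAV-GFP mice. The log2 fold change was 0.09 (SE 0.07, edgeR adjusted p = 0.512), and the 95% interval of the fold, 0.957 to 1.18, leaves out a difference of the size seen in Gbp3. Without AAV-Notum-2041 the log2 fold change of Gbp2 was 0.06. Gbp7 (ENSMUSG00000040253) had 42.8 to 50.1 CPM in the AAV-GFP group (median 46.5) and 44.0 to 68.9 CPM in the AAV-Notum group (median 52.2). Its highest value was that of AAV-Notum-2032, and 3 AAV-Notum mice lay above all AAV-GFP mice. For Gbp7 the log2 fold change was 0.21 (SE 0.10, edgeR adjusted p = 0.380), and 0.12 without AAV-Notum-2032.

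Of the Gbp genes of chromosome 5, Gbp6 overlapped in a single AAV-Notum mouse. Gbp6 (ENSMUSG00000104713), one of the less abundant members with 99 to 240 reads per mouse, had 5.79 to 8.40 CPM in the AAV-GFP group (median 7.57) and 8.03 to 14.0 CPM in the AAV-Notum group (median 10.4). Only AAV-Notum-2034 lay within the range of the AAV-GFP mice. The gene's log2 fold change was 0.58 (SE 0.15, edgeR adjusted p = 0.142), the exact permutation p was 0.00649, and DESeq2's adjusted p was 0.0172. The assignment of reads to Gbp6 is uncertain, because 70.7% of the 50-base words of its transcripts occur in other genes, most of them in the overlapping gene model Gm43302, which had 0 reads in all 12 mice.

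Gbp4 and Gbp9 spread widely within both groups. Gbp4 (ENSMUSG00000079363) had 36.0 to 74.3 CPM in the AAV-GFP group (median 52.9) and 48.6 to 88.8 CPM in the AAV-Notum group (median 64.4). Gbp9 (ENSMUSG00000029298) had 29.6 to 86.2 CPM in the AAV-GFP group (median 48.9) and 51.3 to 118 CPM in the AAV-Notum group (median 75.1). In both genes AAV-Notum-2032 was the highest mouse, and the lowest 2 were AAV-GFP-2011 and AAV-GFP-2014. For Gbp4 the log2 fold change was 0.31 (SE 0.20, edgeR adjusted p = 0.460), 0.20 without AAV-Notum-2032 and 0.18 with RNA integrity as a covariate. That of Gbp9 was 0.54 (SE 0.29, edgeR adjusted p = 0.399), close in size to that of Gbp3 with a standard error several times larger.

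Igtp, an Irgm-type regulator found on lipid droplets and the endoplasmic reticulum, had the largest difference of the 10 genes in the edgeR fit of all 12 mice without a covariate. Igtp (ENSMUSG00000078853) had 27.0 to 48.8 CPM in the AAV-GFP group (median 38.2) and 47.6 to 67.9 CPM in the AAV-Notum group (median 55.4). The groups met at 1 mouse each, AAV-GFP-2022 and AAV-Notum-2033. On the log2 scale the fold change was 0.61 (SE 0.15, edgeR adjusted p = 0.140), which is 1.52-fold with a 95% interval of 1.22 to 1.90. The exact permutation p was 0.00433 and DESeq2's adjusted p was 0.0147. Without AAV-GFP-2022 the edgeR adjusted p of Igtp was 0.0461.

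Irgm2, which shares the locus with Igtp, differed less. Irgm2 (ENSMUSG00000069874) had 64.4 to 88.0 CPM in the AAV-GFP group (median 69.9) and 72.4 to 95.4 CPM in the AAV-Notum group (median 86.0). AAV-GFP-2012 alone reached into the AAV-Notum range, and every AAV-Notum mouse was above the other 5 AAV-GFP mice. The log2 fold change was 0.23 (SE 0.10, edgeR adjusted p = 0.324) and the exact permutation p was 0.0303. Without AAV-GFP-2012 the log2 fold change was 0.29.

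Irgm1, the regulator whose loss leaves mice open to mycobacteria, was the least abundant of the 10 genes, with 58 to 161 reads per mouse. Irgm1 (ENSMUSG00000046879) had 3.25 to 7.27 CPM in the AAV-GFP group (median 4.69) and 5.18 to 8.43 CPM in the AAV-Notum group (median 5.93), and only AAV-Notum-2032 exceeded all AAV-GFP mice. The log2 fold change was 0.37 (SE 0.20, edgeR adjusted p = 0.411). Iigp1 (ENSMUSG00000054072), the effector of the family, had 40.7 to 52.9 CPM in the AAV-GFP group (median 43.9) and 41.9 to 78.0 CPM in the AAV-Notum group (median 53.5). Its AAV-Notum values fell into 2 sets: AAV-Notum-2032, AAV-Notum-2041 and AAV-Notum-2042 had 63.4, 70.5 and 78.0 CPM, and the other 3 had 41.9 to 43.6 CPM, below the AAV-GFP mean of 46.1 CPM. For Iigp1 the log2 fold change was 0.30 (SE 0.17, edgeR adjusted p = 0.413), and 0.18 without AAV-Notum-2042.

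Per kilobase of exon, the level in the AAV-GFP group was highest for Gbp2, at 34.2 ± 2.42 CPM per kb (SD, n = 6), followed by Irgm2 (19.51 ± 2.23), Igtp (18.5 ± 4.13), Gbp3 (14.1 ± 0.926), Gbp9 (10.6 ± 4.61), Gbp7 (8.28 ± 0.553), Iigp1 (7.92 ± 0.865) and Gbp4 (7.11 ± 2.07). Gbp6 (1.23 ± 0.174) and Irgm1 (0.833 ± 0.248) were far below the rest. The place of Gbp6 in this order is uncertain, because 70.7% of its 50-base words occur in other genes. If shared reads were not counted, its level per kilobase is too low, and how they were assigned is not known. Of the neighbours in that order, Gbp2 was above Irgm2, Gbp4 above Gbp6 and Gbp6 above Irgm1 in all 6 AAV-GFP mice (two-sided exact sign-flip permutation test within mouse, p = 0.0312 each, the smallest possible with 6 mice). Adjusted over the 9 neighbouring pairs this exact p was 0.0938, so that 0 of 9 pairs passed, and the order was taken from the same mice. In the other 6 pairs the order varied between mice, with Irgm2 above Igtp in 3 of 6 mice. In AAV-Notum mice Igtp (28.2 ± 3.81 CPM per kb, SD, n = 6) stood between Gbp2 (36.3 ± 2.68) and Irgm2 (22.9 ± 2.72), above Irgm2 in 5 of 6 mice.

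The mice were not ordered alike by the 10 genes. AAV-GFP-2022 was the highest AAV-GFP mouse and AAV-Notum-2032 the highest AAV-Notum mouse in the same 5 genes, Gbp4, Gbp7, Gbp9, Igtp and Irgm1. AAV-Notum-2041 was the highest of its group in Gbp2, Gbp3 and Gbp6. The 2 AAV-Notum mice with 560 and 433 Notum reads in iWAT were thus the highest of their group in 8 of 10 genes. Without both (an alternative chosen after the data were seen), the median log2 fold change was 0.24, and Gbp3 (0.42), Gbp6 (0.41) and Igtp (0.54) had an unadjusted edgeR p under 0.05, with adjusted p values of 0.300, 0.455 and 0.436. AAV-Notum-2032 and AAV-GFP-2022 also had the highest lymphoid scores of their groups (7.02 and 6.60), and AAV-Notum-2041 had 6.14. Gbp4, Gbp9 and Irgm1 moved together across mice, as described next, so the 8 genes are not separate instances. The part of the Notum transcripts in the result was not tested further, and it was not separated from that of the lymphoid score.

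Co-variation was measured over all 12 mice after removal of each group's mean, for 45 pairs, with 100000 permutations within groups. Gbp4 and Gbp9 moved together most closely (Pearson's r = 0.98, permutation p = 3e-05, adjusted over the 45 pairs 0.00135; Spearman's rho = 0.96, adjusted permutation p = 0.00225). Irgm1 went with both, at r = 0.93 with Gbp4 (adjusted permutation p = 0.0027) and r = 0.92 with Gbp9 (adjusted permutation p = 0.0039), with rho of 0.94 and 0.90. Leaving out the 2 mice farthest from the median of the first gene gave r of 0.98, 0.92 and 0.91, and leaving out the 2 mice lowest in lymphoid score gave 0.98, 0.89 and 0.85. Gbp4 and Gbp9 share 60 exon bases on the same strand, against 7494 and 5173 exon bases in all, and 7.78% and 8.05% of their 50-base words occur in other genes. Irgm1 shares 0.379% of its words and lies on another chromosome.

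Other pairs had lower values. Gbp3 and Gbp6, on different chromosomes, had r = 0.78 (adjusted permutation p = 0.0697; rho = 0.86, adjusted permutation p = 0.0192; r = 0.78 without the 2 farthest mice). Igtp and Irgm1 also had r = 0.78 (adjusted permutation p = 0.0697; rho = 0.69, adjusted permutation p = 0.179; r = 0.56 without the 2 farthest mice). Igtp had r = 0.75 with Gbp4 and 0.71 with Gbp9, and Gbp2 and Gbp3 had r = 0.73, with adjusted permutation p of 0.0885, 0.120 and 0.0885. Without the 2 farthest mice these 3 values were 0.60, 0.62 and 0.47. Leaving out the 2 mice lowest in lymphoid score (AAV-GFP-2011 and AAV-GFP-2014) lowered r of Igtp to 0.54 with Irgm1, 0.44 with Gbp4 and 0.37 with Gbp9, while it was 0.79 for Gbp3 and Gbp6 and 0.83 for Gbp2 and Gbp3. Gbp3 and Gbp4 were almost unrelated (r = 0.12), and Gbp2 had negative values with Gbp4, Gbp9 and Irgm1 (r = -0.37, -0.42 and -0.44) that did not pass the test. In all, 38 of 45 pairs had a positive r, with a median of 0.41, and 3 pairs passed after adjustment by r, or 4 by rho.

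**Figure D2:**
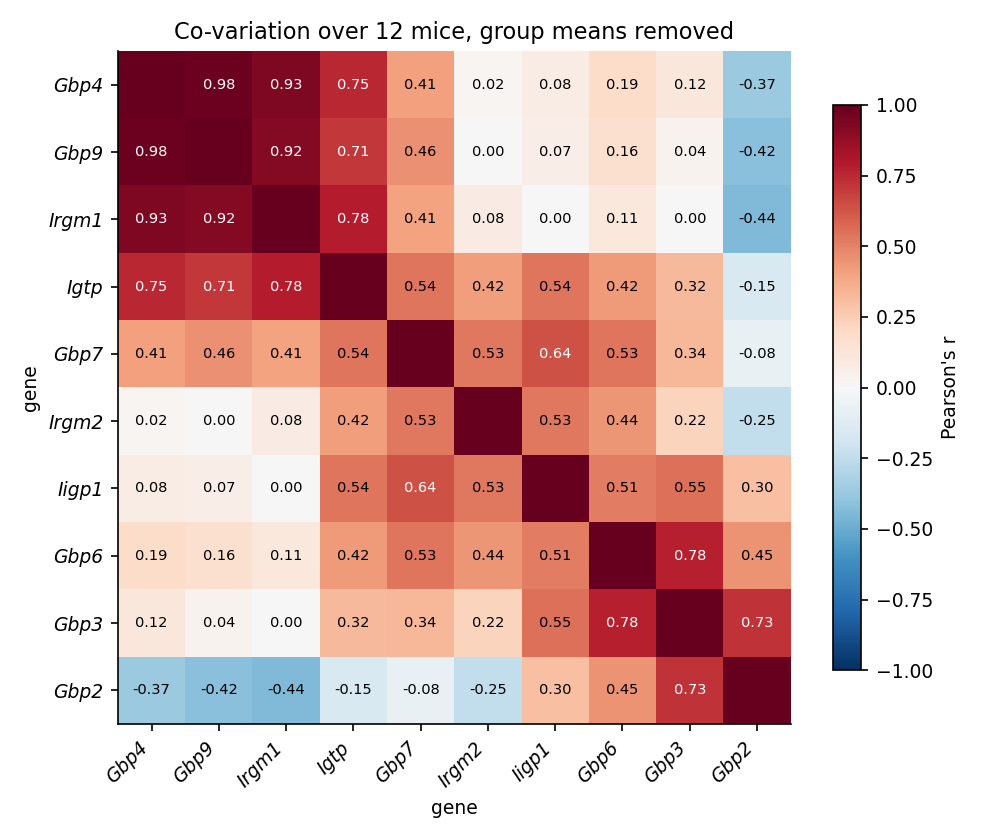
Pearson's r between the log2 CPM of each pair of the 10 genes over 12 mice, after removal of the mean of AAV-GFP and of AAV-Notum mice, in an order of genes chosen to put high values together. Gbp4, Gbp9 and Irgm1 form the block at 0.92 and above. Igtp has 0.71 to 0.78 to these 3 genes (0.37 to 0.54 without AAV-GFP-2011 and AAV-GFP-2014, not drawn), Gbp3 and Gbp6 have 0.78, and Gbp2 and Gbp3 have 0.73.

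Lymphoid transcripts moved with part of the family. All 8 B cell and all 7 T cell markers had a higher mean in the AAV-Notum group, with 0 at an unadjusted edgeR p under 0.05. Their summed levels ran from 4.11 to 1133 CPM (B cells) and from 5.30 to 556 CPM (T cells) in the AAV-GFP group and from 382 to 1777 and 161 to 668 CPM in the AAV-Notum group, and 0 of these markers were at 0 in any mouse. In bulk tissue, fewer cells of a type and less RNA per cell cannot be told apart. With group in the model, the log2 level per unit of lymphoid score went up by 0.19 ± 0.04 (standard error, 12 mice) for Gbp9, 0.14 ± 0.02 for Gbp4, 0.12 ± 0.03 for Irgm1 and 0.087 ± 0.023 for Igtp. For the other 6 genes the slope over 12 mice lay within 2 standard errors of 0. Without the 2 mice below 0 (AAV-GFP-2011, AAV-GFP-2014), which stand apart on this score, the slopes of Gbp9, Gbp4 and Irgm1 were 0.33 ± 0.08, 0.22 ± 0.06 and 0.20 ± 0.08, and that of Igtp was 0.049 ± 0.056. In these 10 mice Irgm2 had a slope below 0, at -0.10 ± 0.04, and the slopes of Gbp2, Gbp3, Gbp6, Gbp7 and Iigp1 lay within 2 standard errors of 0.

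**Figure D3:**
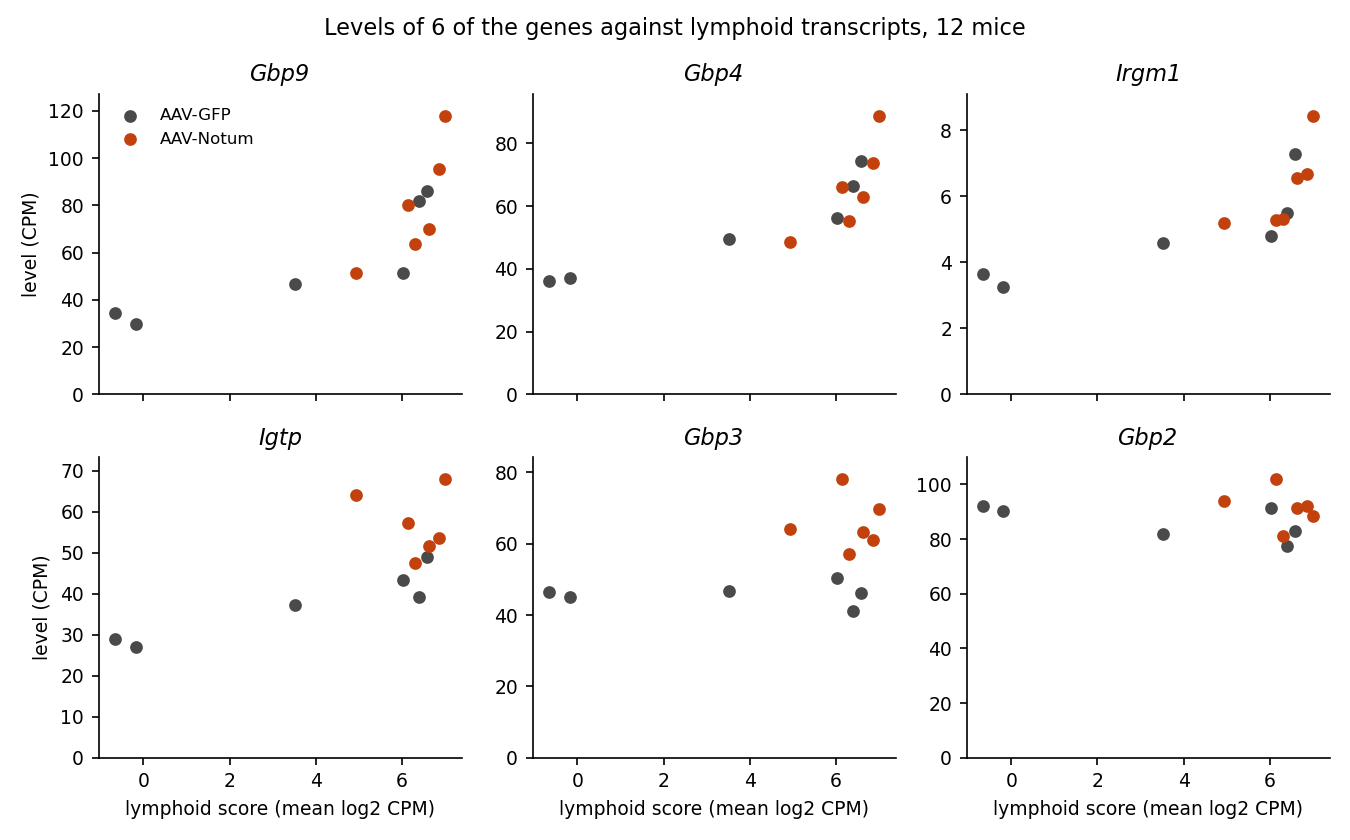
Level in CPM of 6 of the genes (vertical axes) against the lymphoid score, the mean log2 CPM of 15 B and T cell markers (horizontal axis), 1 point per mouse, for 6 AAV-GFP and 6 AAV-Notum mice. Gbp9, Gbp4 and Irgm1 are lowest in the 2 mice with scores below 0 and highest at 7.02, and the Gbp3 points of the groups stay apart over the scores shown.

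The lymphoid score as a covariate lowered the difference of some genes more than that of others. With the lymphoid score as a covariate, the log2 fold change was -0.02 for Gbp4, 0.10 for Gbp9 and 0.07 for Irgm1, with unadjusted edgeR p of 0.843, 0.617 and 0.673. In the same fit it was 0.51 for Gbp3, 0.56 for Gbp6 and 0.40 for Igtp, with unadjusted edgeR p of 1.89e-04, 0.00727 and 0.00493. The adjusted p of these 3 genes there were 0.163, 0.431 and 0.408. The log2 fold change of 0.40 for Igtp was smaller than the 0.61 without the covariate. Its slope on the score was 0.087 ± 0.023 with 12 mice and 0.049 ± 0.056 without the 2 mice below 0, where the standard error was larger. The remaining genes had log2 fold changes of 0.14 (Gbp2), 0.18 (Gbp7), 0.22 (Irgm2) and 0.27 (Iigp1) with the covariate, and the median over the 10 genes was 0.20. Without the 2 mice below 0 in lymphoid score the log2 fold changes were 0.10 for Gbp4, 0.26 for Gbp9, 0.17 for Irgm1, 0.50 for Gbp3, 0.55 for Gbp6 and 0.43 for Igtp, and the median over the 10 genes was 0.21. Without AAV-GFP-2012 as well, chosen after the data were seen, the values were 0.00372 for Gbp4, 0.13 for Gbp9, 0.09 for Irgm1, 0.51 for Gbp3, 0.55 for Gbp6 and 0.38 for Igtp.

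**Figure D4:**
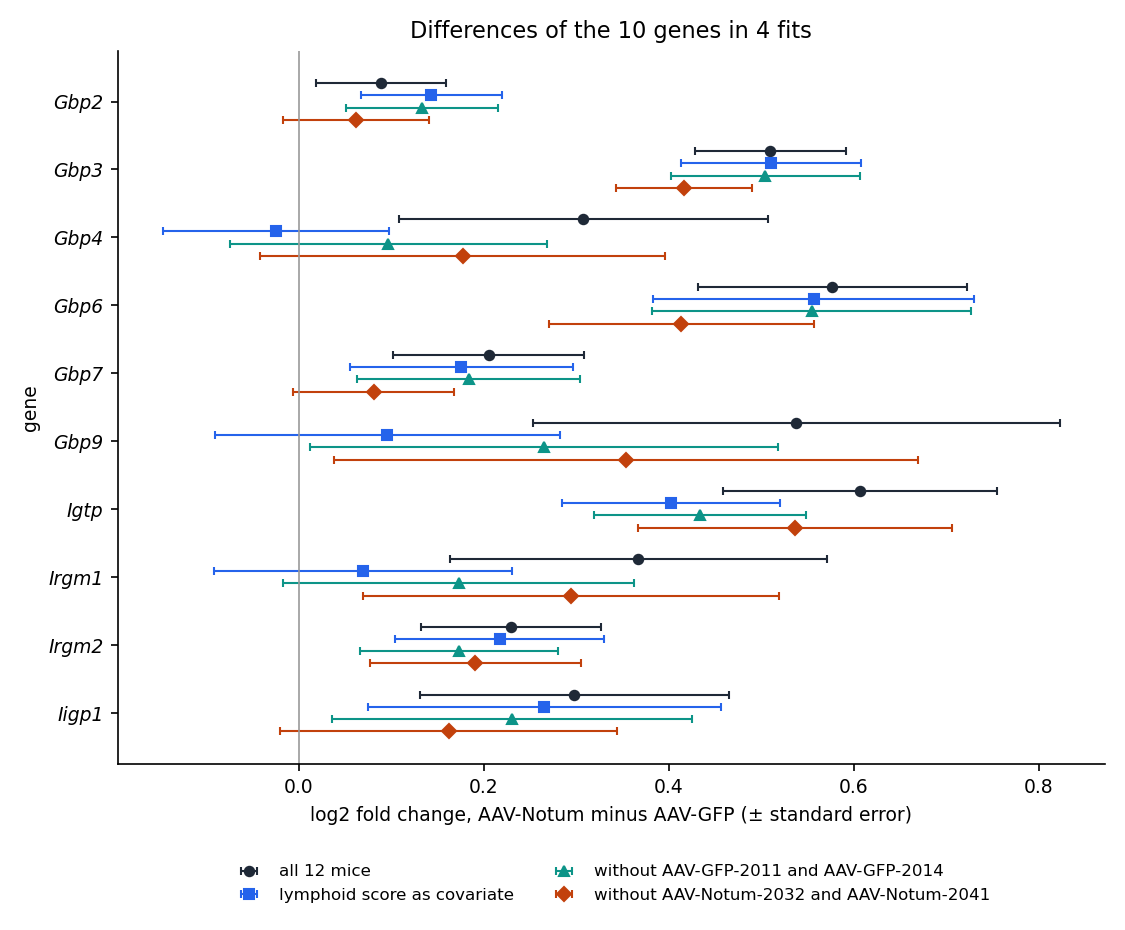
Log2 fold change of each gene, AAV-Notum minus AAV-GFP (horizontal axis), ± standard error from edgeR, with all 12 mice, with the lymphoid score as a covariate, without the 2 AAV-GFP mice lowest in lymphoid transcripts, and without the 2 AAV-Notum mice highest in Notum transcripts. Gbp3 stays between 0.42 and 0.51 in the 4 fits, while Gbp4 runs from 0.31 with all mice to -0.02 with the covariate.

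Transcripts of other cells differed between libraries too. All 6 hepatocyte markers were lower in the AAV-Notum group (2 at an unadjusted edgeR p under 0.05, Alb and Serpina1a), with summed levels of 45.1 to 4828 CPM in AAV-GFP and 19.0 to 689 CPM in the AAV-Notum group. Fgb was at 0 in an AAV-GFP mouse and Ttr in an AAV-Notum mouse. With a hepatocyte score as a covariate, added after the data were seen, the median log2 fold change of the 10 genes was 0.45. All 8 macrophage markers were detected in every mouse, with summed levels of 315 to 575 and 344 to 556 CPM, 5 of them lower in the AAV-Notum group (2 at an unadjusted edgeR p under 0.05), and with a macrophage score as a covariate the median was 0.41.

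All 6 skeletal muscle markers had a higher mean in the AAV-Notum group, the median of their log2 fold changes being 1.47, and 0 had an unadjusted edgeR p under 0.05. Their summed level was 3355 CPM in AAV-Notum-2042, the highest mouse in Irgm2 and Iigp1, and 7.02 to 709 CPM in the other 11 mice, and Ckm was at 0 in an AAV-Notum mouse. Without AAV-Notum-2042 the median of the 10 genes was 0.40. All 6 NK cell markers were higher too (median 0.61, 0 at an unadjusted p under 0.05), with summed levels of 5.48 to 36.8 CPM in AAV-GFP and 16.6 to 40.3 CPM in AAV-Notum mice. Of 6 dendritic cell markers 4 were higher (median 0.65) and 1 was lower at an unadjusted p under 0.05. Endothelial markers were lower in 6 of 7 (median -0.23, 2 at an unadjusted p under 0.05), adipocyte markers in 5 of 6 (median -0.27, 0 at that p) and progenitor markers in 4 of 6 (median -0.29, 2 at that p). The NK, dendritic, endothelial, adipocyte and progenitor markers were above 0 in every mouse. The part of these cells in the differences of the 10 genes was not tested further.

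The ligands of the pathway were near the limit of detection. Of 23 genes for interferons and the cytokines that induce interferon-gamma, Il12a, Il12b and Il18 passed the filter, each with a higher mean in the AAV-Notum group and 0 at an unadjusted edgeR p under 0.05. Ifng had 0 to 7 reads per mouse, 40 in all, and Ifnb1 had 3 reads in all 12 mice. Differences in the interferons themselves were not detectable at this depth.

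Receptors went in both directions. Ifngr1, the binding chain for interferon-gamma, had 251 ± 47.1 CPM (SD, n = 6) in the AAV-GFP group and 203 ± 22.9 CPM in the AAV-Notum group, all 6 below the AAV-GFP mean. Its log2 fold change was -0.31 (SE 0.13, edgeR adjusted p = 0.317, exact permutation p = 0.0584). Ifnar2, a chain of the type I receptor, was higher by 0.12 on the log2 scale (SE 0.05, edgeR adjusted p = 0.336, exact permutation p = 0.00866). Ifngr2 and Ifnar1 had log2 fold changes of 0.28 and 0.16 (exact permutation p = 0.130 and 0.165), which were -0.01 each with the lymphoid covariate. The median over 6 receptor genes was 0.16. At an unadjusted edgeR p under 0.05, 1 of the 6 (Ifnar2) was higher and 1 (Ifngr1) lower, against 4.64% and 9.54% of all genes. The higher count was 0 with RNA integrity as a covariate and 0 without the 2 mice below 0 in lymphoid score. With 1 mouse left out it ran from 0 (as without AAV-GFP-2011) to 3 (without AAV-GFP-2022).

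Of 15 genes for kinases, transducers and interferon regulatory factors, 14 had a log2 fold change above 0, with a median of 0.30. Of these 15, 1 had an unadjusted edgeR p under 0.05, near the 4.64% of all genes that were higher at that p. The count was 4 without AAV-GFP-2013, 6 without AAV-GFP-2022 and 3 without AAV-Notum-2042, and 5 with the macrophage and 4 with the hepatocyte covariate. That gene was Irf7, the factor that amplifies type I interferon production. It went from 70.9 ± 13.8 to 123 ± 31.9 CPM (SD, n = 6 each), a log2 fold change of 0.80 (SE 0.18, edgeR adjusted p = 0.124, DESeq2 adjusted p = 0.00727). Irf1, which acts downstream of interferon-gamma, and Irf9 had log2 fold changes of 0.26 and 0.44 (exact permutation p = 0.0758 and 0.0931). Of 13 inhibitors, 10 had a value above 0. Usp18, which blocks type I receptor signalling, was at 0.80 (exact permutation p = 0.0130), Socs1, which inhibits the kinases, at 0.72 (exact permutation p = 0.108), and the phosphatase gene Ptpn11 at -0.32 (exact permutation p = 0.0671), and of these Usp18 and Ptpn11 had an unadjusted edgeR p under 0.05. That is 1 of 13 higher and 1 of 13 lower, near the 4.64% and 9.54% of all genes, and the higher count was 3 without AAV-GFP-2013 and 2 without AAV-GFP-2022.

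Other interferon-inducible GTPases ranged more widely than the 10 genes. Of 20 such genes 15 were tested, with log2 fold changes from -0.15 to 1.32 and a median of 0.59, and 14 were above 0. Gbp10 had 1.68 ± 0.757 CPM (SD, n = 6) in the AAV-GFP group and 4.23 ± 1.77 CPM in the AAV-Notum group, and Gm12250 had 8.27 ± 3.29 and 14.3 ± 3.13 CPM. Both were higher in every AAV-Notum mouse than in every AAV-GFP mouse, with log2 fold changes of 1.32 and 0.79 (exact permutation p = 0.00216 each, edgeR adjusted p = 0.152 and 0.225). Such separation held for 2 of the 15 genes and for 0.398% of all genes. DESeq2 called Gbp10 alone of the 15 higher (adjusted p = 0.0135), against 0.481% of the genes it tested. Mx2 was at 0.66 (exact permutation p = 0.0541), and Gbp11 alone was below 0, at -0.15. Mx2 and Gbp11 are annotated as polymorphic pseudogenes, and Gm12250 as a processed pseudogene. An unadjusted edgeR p under 0.05 was found for 3 of the 15 (Gbp10, Gm12250 and Mx2), where 4.64% of all genes were higher at that p. The count was 6 with limma-voom, 7 without AAV-GFP-2022, and 2 without AAV-GFP-2011, AAV-GFP-2014, AAV-GFP-2021, AAV-Notum-2032 or AAV-Notum-2041. It was also 2 with the lymphoid score as a covariate, and 2 without the pair of mice below 0 in that score. The B and T cell markers were higher in the AAV-Notum group as well, and their part in the values of this list was not tested further.

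Among other targets, the 24 genes of the type I response were all above 0, with a median of 0.59, and 16 had an unadjusted edgeR p under 0.05 (4.64% of all genes were higher at that p). They were Rtp4, Ifi44, Ifit1, Ifit2, Ifit3, Ifit3b, Isg15, Bst2, Oas1a, Oasl2, Cmpk2, Ddx58, Dhx58, Eif2ak2, Xaf1 and Zbp1, with log2 fold changes from 0.27 (Eif2ak2, the RNA-activated kinase) to 0.94 (Ifi44). Of 18 tested genes induced mainly by interferon-gamma, 16 were above 0, with a median of 0.46, and 6 had an unadjusted edgeR p under 0.05: the peptide transporters Tap1 (0.61) and Tap2 (0.25), the immunoproteasome subunits Psmb8 (0.54) and Psmb9 (0.52), Cd274 (0.27) and Ubd (0.40). With the lymphoid score as a covariate these counts were 8 of 24 and 0 of 18, with a macrophage score they were 19 and 10, without the 2 mice below 0 in lymphoid score they were 9 and 0, without AAV-Notum-2032 and AAV-Notum-2041 8 and 0, and 11 and 3 in a fit with the RNA integrity number. With 1 mouse left out the count of 16 ran from 11 to 22, and that of 6 from 3 to 7. The count of 6 was 3 without AAV-GFP-2014 and 4 without AAV-GFP-2011, AAV-Notum-2032, AAV-Notum-2034 or AAV-Notum-2041. In both lists 0 genes passed an edgeR adjusted p of 0.05, while DESeq2 called 6 of the 24 (Rtp4, Ifi44, Ifit2, Ifit3, Isg15 and Bst2) and 0 of the 18 higher, against 0.481% of the genes it tested.

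Most genes that direct Gbp and Irg proteins to membranes were below 0, with list medians near 0. Their difference from the 10 genes was not tested. Adipocyte markers were lower as well (5 of 6) and B and T cell markers higher, and the part of these cells was not tested. Of 10 tested genes of the autophagy machinery, 8 were below 0, with a median of -0.08. Map1lc3a and Gabarapl1, whose proteins are conjugated to membranes, were at -0.67 and -0.52 (exact permutation p = 0.0368 and 0.0303), and no AAV-Notum mouse reached the AAV-GFP mean of either gene. Of 8 genes for enzymes that attach or process lipid anchors, 7 were below 0, with a median of -0.05, and Nmt2, an N-myristoyltransferase, was at -0.29 (exact permutation p = 0.0584). At an unadjusted edgeR p under 0.05, 2 of the 10 and 1 of the 8 were lower, where 9.54% of all genes were lower. The count of 1 of 8 is near that share. The smallest edgeR adjusted p was 0.236 in the autophagy list and 0.336 in the lipid-anchor list.

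**Figure D5:**
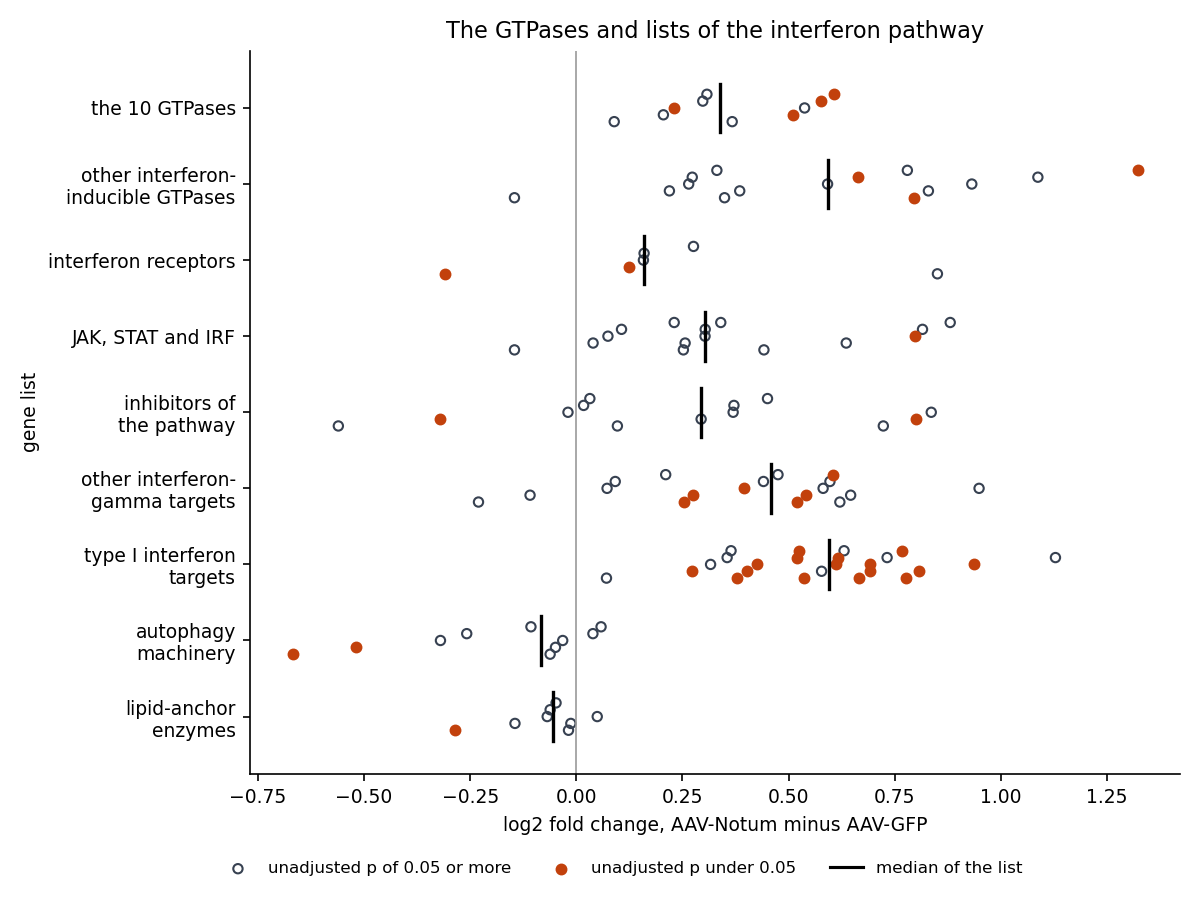
Log2 fold change, AAV-Notum minus AAV-GFP (horizontal axis), of each tested gene in 9 lists (vertical axis), with the list's median as a bar and filled points for an unadjusted edgeR p under 0.05. The 10 GTPases lie between 0.09 and 0.61, the 24 type I targets all above 0, and the autophagy and lipid-anchor lists mostly below 0.

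The genes whose levels most resembled the family were not interferon targets of the lists. Likeness was the correlation over 12 mice, group means removed, with the mean standardised level of the 10 genes, and it was highest for Rpl31 (r = 0.92), Chd9 (0.91), Foxj3 (0.89), Zfp638 (0.89) and Akap11 (0.88), followed by Ing4, Ranbp2, Ccr10, Wac and Slain2 (0.87 to 0.88). The ranking was taken over all genes tested and is a description. Of these 10 genes, Ccr10 alone had an unadjusted edgeR p under 0.05 between the groups, with a log2 fold change of 0.77 (edgeR adjusted p = 0.230).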

How the data were processed

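iWAT RNA of 12 mice (6 AAV-GFP and 6 AAV-Notum, by the sample labels) was sequenced by the authors from TruSeq libraries as single-end reads on a HiSeq4000, checked with FastQC, mapped to mm10 with STAR 2.3.1 and compared with DESeq2. The counting program and its annotation are not given in the sources used here. The authors deposited raw counts of reads per gene, used here, and a second table of log2 values (log2 of reads divided by a size factor, plus 1), used as an alternative. With that scaling undone, 100% of the deposited log2 values came out as whole reads within 0.01, and the members' totals were 98.5% to 102% of those in the raw table.

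The raw counts were fitted with edgeR 4.0.16 under R 4.3.3 (filterByExpr with a minimum count of 10 and a minimum total of 15, TMM, glmQLFit and glmQLFTest, two-sided, threshold 0.05 after Benjamini-Hochberg adjustment). A prior count of 2 was used for log2 CPM, and standard errors were derived from F (log2 fold change over its square root). Exact permutation tests of a gene used all 924 ways to split the mice evenly. The edgeR fit was also run on simulated counts in which 200 genes differed by a log2 fold change of 1 or -1. These differences are larger than those of the 10 genes, and the simulated mice did not differ in lymphoid transcripts. No conclusion about the 10 genes is drawn from that run. DESeq2 1.42.0 and limma 3.58.1 were alternatives, with other filters and size factors, covariates and mice left out. Figures were drawn with matplotlib 3.10.9.

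Total counts per mouse were 14711113 to 21618860. Genes with few reads, such as Irgm1 with 58 to 161 reads per mouse, carry more counting error. Each library is 1 mouse. AAV-GFP-2012 alone had another RNA isolation date than the other 11 mice, so that date cannot be told apart from the mouse. The genes and the lists of the pathway were chosen with earlier results of these data known. Named were the 10 GTPases, Irf1, Irf7, Irf9, Ifngr1, Ifngr2, Ifnar1, Ifnar2, Socs1 and Usp18, genes of the pathway lists with an unadjusted p under 0.05, and the 10 genes most like the family. A further gene of the pathway is not reported here and was left out of its list. Gm43302, Fabp4, Adipoq, Il12a, Il12b, Il18, Ifng, Ifnb1, Gbp11, Alb, Serpina1a, Fgb, Ttr and Ckm were named after their values were seen.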

Additional observations from a re-analysis of the deposited data

Results flagged for a closer look

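Of the 20 groups of 6 values tested (10 genes in each group of mice), 1 held a value far from the others, and chance gives about 1 in 20. It was Irgm2 in AAV-GFP-2012, at 87.95 CPM, where the other 5 AAV-GFP mice had 64.39 to 71.43 CPM. The gap was 0.701 of the range of the group, above Dixon's 95% critical value. This mouse also had its RNA isolated on another date and a lymphoid score of 3.52, between those of the other AAV-GFP mice, and the part of either in the value was not tested. Without it the log2 fold change of Irgm2 was 0.29 (edgeR's quasi-likelihood test) in place of 0.23.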

How the results depend on the processing

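Each log2 fold change of the 10 genes was computed under 28 alternatives, 280 values in all, of which 268 had the same sign and stood on the same side of the threshold as with the first analysis, 11 passed it in addition and 1 had the other sign. Because 0 of the 10 genes passed in the first analysis, none could drop out, and the 268 include values near 0. An example is Gbp4 without the 3 AAV-GFP mice lowest in lymphoid transcripts (0.00372, against 0.31). The 1 value with the other sign is described next. It was that of Gbp4 with the lymphoid score as a covariate (-0.0247), where Ifngr2 (-0.00744) and Ifnar1 (-0.0144) also turned. Without the 3 AAV-GFP mice lowest in lymphoid transcripts Ifngr2 (-0.0293) and Ifnar1 (-6.89e-04) turned again. The cause was not tested. The number of the 10 genes called higher, 0 with edgeR, was 3 with DESeq2 with or without independent filtering (Gbp3, Gbp6 and Igtp), 1 with RLE size factors, 1 with at least 10 counts in every mouse and 1 with the reads recovered from the normalized table (Gbp3 each time). It ran from 0 to 2 with a mouse left out, and was 2 (Gbp3 and Igtp) without AAV-GFP-2022 only. The number with an unadjusted p under 0.05 was 4 and ran from 3 to 6 with a mouse left out, and from 3 to 5 otherwise. The number without overlap between the groups, 1, was 2 without the 3 AAV-GFP mice and 1 to 2 with a mouse left out (2 without AAV-GFP-2012, AAV-GFP-2022, AAV-Notum-2033 or AAV-Notum-2034). The median of 0.34 ran from 0.26 to 0.47 with a mouse left out, and was lowest, at 0.18, without the 3 AAV-GFP mice.

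Over all genes, edgeR called 0 higher (723 at an unadjusted p under 0.05) and 8 lower. DESeq2 called 79 higher and 357 lower, and 45 and 235 without independent filtering. RLE size factors gave 1 and 13, at least 10 counts in every mouse 1 and 14, the hepatocyte covariate 1 and 13, and the recovered reads 1 higher. Fewer were lower with at least 1 count in all (5), the lymphoid (4) or macrophage (5) covariate, the authors' normalized values (4), and without the 2 (1) or 3 (0) AAV-GFP mice lowest in lymphoid transcripts or the 2 AAV-Notum mice highest in Notum transcripts (0). With a mouse left out, 0 to 12 were higher and 1 to 146 lower, the upper ends both without AAV-GFP-2022. No paired analysis was possible because the groups share no replicate number. The recovered reads, the 3 AAV-GFP mice, the hepatocyte covariate and the 2 AAV-Notum mice were chosen after the data were seen.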
